A study of Mus musculus with 12 samples.

Results

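The 10 genes described here lie in the same stretch of mouse chromosome 17: Tiam2, Synj2, Tmem181a, Rsph3b, Tagap, Tagap1, Rnaset2a, Rnaset2b, Rps6ka2 and Mpc1. They were taken by name as a list of neighbouring genes, and all 10 are among the 46095 gene symbols of the count table and among the 17530 that passed the filter on low counts. The list was drawn up with the difference between diabetic and control libraries in view. Differences of these genes and their family sums from the control libraries are therefore given as descriptions. Where calls among them are counted, the counts only describe the fit and how it moves with its settings. The 12 RNA-seq libraries came from renal cortex of C57BL/6 mice aged 12 weeks, with 4 libraries in each group. The groups were normal control (NC), diabetic nephropathy (DN, the kidney disease of diabetes) and diabetic nephropathy treated with sodium butyrate (DN+NaB), the salt of a short-chain fatty acid that inhibits histone deacetylases. The labels give the same strain for all 3 groups, but no genotype for this stretch of the chromosome and no source of the animals, so neither can be told apart from the disease group. The sources used here do not give how diabetes was produced, the dose of sodium butyrate or any batch. Nothing in the labels says which animal a library came from, and a p-value therefore measures the spread between these libraries, which may be technical.

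Several of these genes exist in near-identical copies. Rnaset2a and Rnaset2b both encode the T2 ribonuclease, a secreted and lysosomal enzyme that cuts RNA. Tagap and its copy Tagap1 are known from activated T cells. Rsph3b and Rsph3a encode a protein of the radial spoke, a structure inside motile cilia. Tmem181a encodes a multi-pass membrane protein and has the related pseudogene symbols Tmem181b-ps and Tmem181c-ps. Mpc1 encodes a subunit of the mitochondrial pyruvate carrier, which brings pyruvate into mitochondria, and the pseudogene Mpc1-ps resembles it. The other three are single genes: Tiam2 encodes an exchange factor for the GTPase Rac, Synj2 the phosphoinositide phosphatase synaptojanin, and Rps6ka2 a ribosomal S6 kinase activated downstream of ERK. When copies are alike, a short read from either can match both, and the counting decides where it goes. How the authors' counting treated such reads, and whether it used strand, is not given in the sources used here. Each copy is therefore shown beside its family sum, which does not depend on how reads are split among the copies counted in it. Any reads left out of counting because they match several copies would be missing from the sum as well.

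Libraries held 58394975 to 70674015 counts (median 63588713). No library repeated another of its group within sampling noise (chi-square over degrees of freedom at least 23.6). The labels call the tissue renal cortex, but the text on extraction says prefrontal cortex. The 8 proximal tubule markers had a summed level from 18035 to 32451 CPM over the 12 libraries. CPM here is the usual count scaled to library size, with TMM factors. Of 5 neuron and glia markers, the 3 tested had a summed level from 15.9 to 24.6 CPM. Nearly all of it was Mbp, a myelin gene at 19.1 ± 2.19 CPM in NC (SD, n = 4). Gfap and Syt1 were under 1 CPM on average in each group. Snap25 had no count in any library, where the limit set by a count of 0 is 3 counts per library. None of the 3 tested markers of this list was called in any comparison.

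The sequences below show how alike the copies are, and so which of them a read can tell apart. Over their whole coding sequence of 777 bases, Rnaset2a and Rnaset2b did not differ at any base in the GENCODE M21 annotation of GRCm38. Their promoters in the RefSeq table (GRCm38.p6), which has a promoter for 10 of the 10 genes, aligned over 255 of 300 bases with 1 difference. The aligned stretch before both annotated starts follows, 5′ to 3′, with the differing base in capitals; Rnaset2a is at chr17:8147833-8148037, minus strand and Rnaset2b at chr17:6978655-6978859, plus strand.
Rnaset2a promoter: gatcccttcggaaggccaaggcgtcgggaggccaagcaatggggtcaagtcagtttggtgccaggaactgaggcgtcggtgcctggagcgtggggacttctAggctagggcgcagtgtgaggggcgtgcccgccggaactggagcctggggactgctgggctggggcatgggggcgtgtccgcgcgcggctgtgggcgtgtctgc
Rnaset2b promoter: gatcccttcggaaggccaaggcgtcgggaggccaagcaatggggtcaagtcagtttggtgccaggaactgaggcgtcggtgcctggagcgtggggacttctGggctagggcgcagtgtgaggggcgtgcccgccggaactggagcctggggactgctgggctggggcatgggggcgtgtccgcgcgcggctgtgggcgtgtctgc
The first 90 coding bases were the same in Rnaset2a (chr17:8147605-8147694, minus strand) and Rnaset2b (chr17:6978998-6979087, plus strand).
Rnaset2a and Rnaset2b coding: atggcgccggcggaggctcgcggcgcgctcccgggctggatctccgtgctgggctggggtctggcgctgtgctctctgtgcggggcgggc
A read that lies within this stretch matches both copies equally well.

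The other pairs differed at a few bases, and the 90-base coding stretch of each with the most differences is shown because reads across such bases can separate the copies, as can reads from parts that do not align. Rsph3b and Rsph3a differed at 13 of 1548 aligned coding bases (99.16% identity). Tagap1 and Tagap differed at 17 of 1401 (98.79%). Tmem181a differed from Tmem181c-ps at 9 of 1338 and from Tmem181b-ps at 0 of the 454 that aligned. Capitals mark the bases that differ within a pair. Rsph3b is at chr17:6948175-6948264, minus strand, and Rsph3a at chr17:7946017-7946106, plus strand. Tagap1 is at chr17:6956829-6956918, minus strand, and Tagap at chr17:7932989-7933078, plus strand. Tmem181a is at chr17:6290557-6290646, plus strand, and Tmem181c-ps at chr17:6628808-6628897, minus strand.
Rsph3b coding: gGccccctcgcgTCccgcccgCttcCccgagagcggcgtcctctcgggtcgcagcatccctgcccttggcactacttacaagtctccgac
Rsph3a coding: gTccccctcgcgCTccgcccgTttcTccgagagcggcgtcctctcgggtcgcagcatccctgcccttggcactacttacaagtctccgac
Tagap1 coding: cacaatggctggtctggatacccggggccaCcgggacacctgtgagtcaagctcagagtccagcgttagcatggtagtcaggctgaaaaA
Tagap coding: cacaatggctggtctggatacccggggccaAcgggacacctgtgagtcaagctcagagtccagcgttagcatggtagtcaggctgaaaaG
Tmem181a coding: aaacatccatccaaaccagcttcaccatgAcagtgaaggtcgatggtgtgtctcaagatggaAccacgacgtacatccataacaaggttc
Tmem181c-ps transcript: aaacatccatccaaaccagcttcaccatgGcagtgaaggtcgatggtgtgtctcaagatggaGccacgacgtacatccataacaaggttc
The Rsph3 stretches differ at 5 bases, the Tagap stretches at 2 and the Tmem181 stretches at 2.

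Mpc1 and Mpc1-ps differed at 1 of 327 aligned bases, although the pseudogene lies on chromosome 12. The stretch below is the same in Mpc1 (chr17:8296535-8296624, plus strand) and Mpc1-ps (chr12:110858730-110858819, minus strand).
Mpc1 and Mpc1-ps: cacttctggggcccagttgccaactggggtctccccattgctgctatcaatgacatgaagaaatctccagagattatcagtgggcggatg
The copies were also compared along whole transcripts, untranslated bases included. Of all 100-base windows along a reference transcript, 68.2% of those of Rnaset2a and 68.5% of those of Rnaset2b also occurred in the other copy. The share was 64.8% for Rsph3b, 42.9% for Tagap1, 31.9% for Tagap, 24.9% for Tmem181a and 18.8% for Mpc1, but 82.3% for Mpc1-ps. Promoters of Rsph3b and Rsph3a aligned over only 19 bases and those of Tagap1 and Tagap over 12. These coordinates are of the reference sequences; the build the authors counted on is not given in the sources used here.

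The Rnaset2 copies differed from control in opposite directions: Rnaset2a was higher and Rnaset2b lower in the diabetic libraries. Rnaset2a stood at 38.4, 36.6, 34.4 and 29.6 CPM in NC libraries 1 to 4, 100.2, 72.1, 104 and 82.6 in DN and 75.1, 77.6, 70.7 and 78.9 in DN+NaB. Every DN and DN+NaB library lay above every NC library. Rnaset2b stood at 54.3, 48.4, 46.6 and 39.5 CPM in NC libraries 1 to 4, 20.5, 15.7, 24.6 and 18.0 in DN and 16.5, 18.0, 17.3 and 14.8 in DN+NaB. Here the order was the opposite, with every NC library above the 8 diabetic ones. The log2 fold change of DN against NC was 1.37 ± 0.13 (SE) for Rnaset2a and -1.26 ± 0.14 for Rnaset2b, and that of DN+NaB against NC was 1.12 ± 0.13 and -1.50 ± 0.15. Per kilobase of exon, the copies had close mean levels in NC, with 10.4 CPM per kb for Rnaset2a and 10.6 for Rnaset2b. In DN the same levels were 26.8 and 4.42 CPM per kb. The sum of both copies was 92.7, 85.0, 81.0 and 69.2 CPM in NC, 121, 87.8, 128 and 101 in DN and 91.5, 95.7, 88.0 and 93.7 in DN+NaB. NC and DN overlapped in the sum, whose log2 fold change was 0.42 ± 0.13 in DN and 0.17 ± 0.13 in DN+NaB against NC.

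Rsph3b, the copy of the radial spoke gene next to Tagap1 and Rnaset2b, was lower in the diabetic libraries, while Rsph3a was level. Rsph3b stood at 30.2, 32.3, 34.1 and 30.2 CPM in NC libraries 1 to 4, 11.6, 12.1, 12.5 and 8.22 in DN and 11.7, 12.9, 11.8 and 9.88 in DN+NaB. Every NC library lay above all 8 diabetic libraries. Rsph3a stood at 21.3, 26.2, 23.7 and 21.9 CPM in NC libraries 1 to 4, 18.1, 25.3, 26.5 and 24.3 in DN and 23.5, 24.6, 20.4 and 19.3 in DN+NaB, with the 3 groups overlapping. The log2 fold change of DN against NC was -1.51 ± 0.14 for Rsph3b and 0.02 ± 0.14 for Rsph3a. The sum was 51.5, 58.5, 57.8 and 52.1 CPM in NC, 29.7, 37.4, 39.0 and 32.6 in DN and 35.2, 37.6, 32.3 and 29.2 in DN+NaB, so that NC stayed above both diabetic groups with the copies together. Its log2 fold change was -0.67 ± 0.12 in DN and -0.71 ± 0.12 in DN+NaB against NC.

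In the Tagap pair, Tagap was higher and Tagap1 lower in the diabetic libraries. Tagap stood at 2.88, 2.80, 2.79 and 3.94 CPM in NC libraries 1 to 4, 5.33, 4.75, 5.74 and 6.52 in DN and 5.68, 5.56, 5.45 and 6.19 in DN+NaB. Its 8 diabetic libraries lay above the 4 NC libraries, of which NC 4 was the highest. Tagap1 stood at 13.3, 14.4, 13.0 and 14.2 CPM in NC libraries 1 to 4, 8.60, 9.63, 11.7 and 10.1 in DN and 9.87, 8.68, 10.4 and 8.57 in DN+NaB, and here NC lay above the diabetic libraries. The log2 fold change of DN against NC was 0.85 ± 0.17 for Tagap and -0.46 ± 0.13 for Tagap1, the smallest in size among the 10 genes. The sum of the pair was 16.2, 17.2, 15.8 and 18.2 CPM in NC, 13.9, 14.4, 17.4 and 16.6 in DN and 15.5, 14.2, 15.8 and 14.8 in DN+NaB. Its groups overlapped, with a log2 fold change of -0.11 ± 0.11 in DN and -0.16 ± 0.11 in DN+NaB against NC. Both copies are known from T cells, and T and NK cell markers moved with the groups. The summed level of the 12 markers ran from 19.7 to 34.7 CPM in NC. In DN it ran from 7.66 to 23.0, and in DN+NaB from 3.06 to 4.28, with Cd2 at 0 throughout. Of the 11 tested, 3 fell in DN against NC, 11 in DN+NaB against NC and 2 in DN+NaB against DN. Over all tested genes, 4.42% were called lower in DN against NC and 8.94% in DN+NaB against NC. In DN+NaB against DN, 4 of 17530 were called, 2 of them lower. Their part in the Tagap values was not tested. In bulk tissue, fewer cells of a type and less RNA per cell cannot be told apart.

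Tmem181a was lower and Tmem181c-ps higher in the diabetic libraries. Tmem181a stood at 7.95, 7.88, 6.67 and 10.5 CPM in NC libraries 1 to 4, 1.93, 2.57, 3.24 and 2.82 in DN and 2.93, 2.52, 2.65 and 2.31 in DN+NaB, and NC lay apart from both diabetic groups. Tmem181c-ps had 3, 3, 0 and 9 counts in NC, 89, 70, 102 and 114 in DN and 87, 71, 69 and 103 in DN+NaB. The pseudogene was at or near 0 in NC and had at least 69 counts in every diabetic library. Tmem181b-ps stood at 2.30, 1.16, 1.81 and 3.25 CPM in NC libraries 1 to 4, 3.51, 2.97, 3.39 and 4.78 in DN and 2.99, 3.84, 4.03 and 3.04 in DN+NaB, where NC 4 overlapped DN. The log2 fold change of DN against NC was -1.64 ± 0.20 for Tmem181a, 0.78 ± 0.28 for Tmem181b-ps and 4.72 ± 0.52 for Tmem181c-ps, the last resting on few counts in NC. The sum of the 3 symbols was 10.3, 9.09, 8.48 and 13.9 CPM in NC, 6.83, 6.78, 8.18 and 9.44 in DN and 7.40, 7.53, 7.82 and 6.83 in DN+NaB. NC and DN overlapped in the sum, and its log2 fold change was -0.42 ± 0.17 in DN and -0.50 ± 0.17 in DN+NaB.

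Mpc1, the pyruvate carrier subunit, was lower in the diabetic libraries, and most counts of its family sat on the pseudogene symbol. Mpc1 stood at 14.8, 7.03, 9.85 and 9.68 CPM in NC libraries 1 to 4, 4.76, 3.68, 4.94 and 4.81 in DN and 5.72, 4.79, 4.21 and 4.32 in DN+NaB. The NC libraries were spread widely but lay above all 8 others. Mpc1-ps stood at 102, 67.1, 75.0 and 62.1 CPM in NC libraries 1 to 4, 53.3, 50.3, 62.2 and 40.5 in DN and 68.7, 51.5, 52.5 and 44.4 in DN+NaB. Here NC 4 lay just under the highest DN library, so the groups overlapped. The log2 fold change of DN against NC was -1.19 ± 0.21 for Mpc1 and -0.57 ± 0.18 for Mpc1-ps. Without NC 1, the highest library, the value for Mpc1 was -0.97. The sum was 117, 74.1, 84.9 and 71.8 CPM in NC, 58.1, 54.0, 67.1 and 45.3 in DN and 74.4, 56.3, 56.8 and 48.7 in DN+NaB, with a log2 fold change of -0.63 ± 0.18 in DN and -0.56 ± 0.18 in DN+NaB. Without NC 1 these were -0.47 and -0.39. NC and DN did not overlap in the sum, while NC and DN+NaB did.

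Tiam2, Synj2 and Rps6ka2 have no pseudogene symbol of their name in the table. Synj2 stood at 3.98, 4.23, 3.92 and 3.87 CPM in NC libraries 1 to 4, 10.3, 10.1, 9.86 and 12.3 in DN and 12.1, 9.60, 11.6 and 10.4 in DN+NaB. Its control values were the least spread of the 10 genes (coefficient of variation 3.96%), and every diabetic library was above them. Tiam2 stood at 9.89, 7.65, 10.1 and 8.95 CPM in NC libraries 1 to 4, 3.10, 4.21, 4.33 and 5.39 in DN and 3.73, 3.78, 3.46 and 3.80 in DN+NaB, with NC above all others. Rps6ka2 stood at 9.18, 9.27, 7.73 and 10.8 CPM in NC libraries 1 to 4, 5.13, 5.42, 5.71 and 3.71 in DN and 7.74, 5.75, 6.40 and 6.37 in DN+NaB. Only for this gene among the 10 did NC and DN+NaB overlap, with 7.73 CPM in NC 3 and 7.74 in DN+NaB 1. The log2 fold change of DN against NC was 1.41 ± 0.13 for Synj2, -1.10 ± 0.18 for Tiam2 and -0.89 ± 0.17 for Rps6ka2. In DN+NaB against NC it was 1.45 ± 0.13, -1.31 ± 0.18 and -0.50 ± 0.17.

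**Figure D1:**
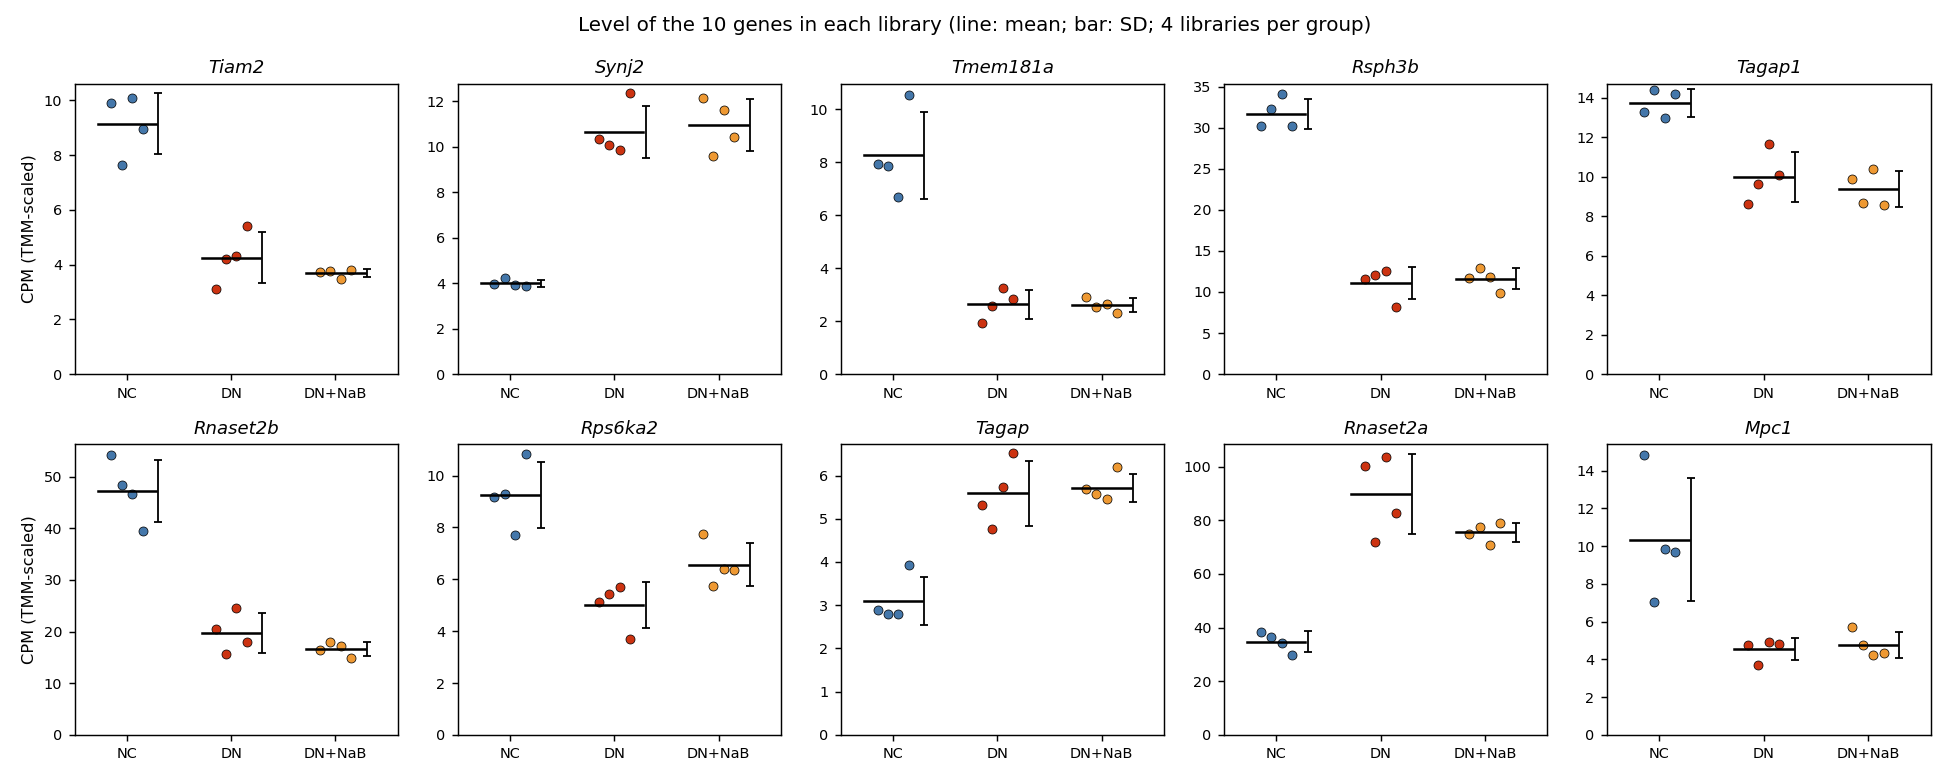
Level of each of the 10 genes in CPM scaled by TMM factors (y axis, from 0) in the NC, DN and DN+NaB libraries (x axis), 1 point per library, with the group mean as a line and the SD as a bar. Synj2, Tagap and Rnaset2a sit higher in all 8 diabetic libraries than in NC, and the other 7 genes sit lower in DN than in NC.

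All 10 genes passed an adjusted p of 0.05 in DN against NC (3 higher and 7 lower), where 8.23% of all tested genes did (3.82% higher and 4.42% lower). All 10 had groups that did not overlap, against 13.3% of tested genes. Since the list was chosen on this contrast, nothing is read from these counts. Tagap1 depended on the settings: it kept its direction throughout but passed in 7 of 20 alternatives. It was lost without any 1 of NC 1 to 4, DN 1, DN 2 or DN+NaB 1 to 4, among others. In DN+NaB against NC, which shares the NC libraries, 9 of the 10 passed (3 higher and 6 lower) against 15.6% of tested genes (6.62% higher and 8.94% lower), Rps6ka2 being the exception. The same 9 had groups that did not overlap, against 27.9% of tested genes. Without DN 4, and under 4 other alternatives, Rps6ka2 passed as well. With the copies summed, 2 of 5 family sums (Rsph3 and Mpc1) passed in DN against NC beside 8.18% of the rows of that fit. The same 2 passed in DN+NaB against NC beside 15.5%. Without NC 1, NC 3, DN 1, DN 2 or DN 4, or without DN+NaB 2 or 3, the Mpc1 sum no longer passed in DN against NC, which left 1 of 5 except where the Rnaset2 sum passed (without DN 2 or DN 4). In DN+NaB against NC, the Mpc1 sum no longer passed without NC 1, NC 3, DN 1, DN 2, DN+NaB 2, DN+NaB 3 or DN+NaB 4, which left 1 of 5, and without DN 4 the Tmem181 sum passed too, which made 3.

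**Figure D2:**
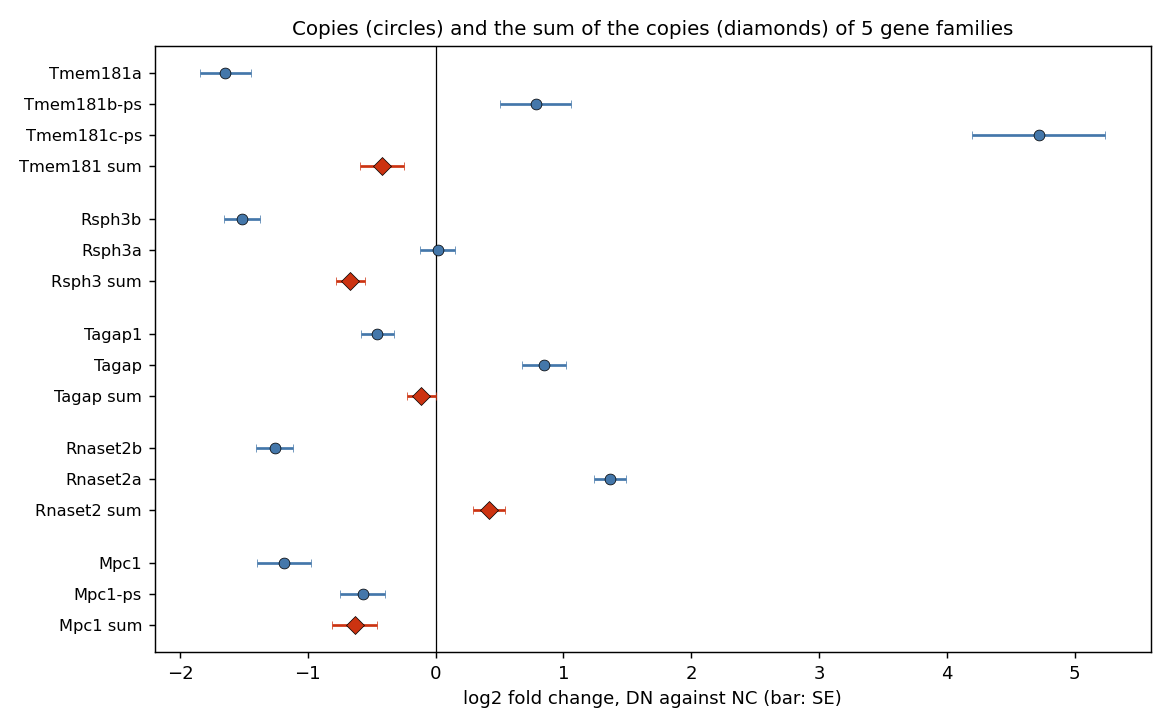
Log2 fold change of DN against NC (x axis, with SE as bars) for each copy (circles) and for the sum of the copies (diamonds) of 5 families. Within the Rnaset2, Tagap and Tmem181 families copies lie on both sides of 0 and the sum lies between them, at 0.42, -0.11 and -0.42. In the Rsph3 family Rsph3a lies near 0 (0.02), Rsph3b at -1.51 and the sum at -0.67.

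The share of Rnaset2 counts that fell on Rnaset2a had an SD of 0.713 to 1.65 percentage points within a group, while those of Tmem181a and Rsph3b varied more, with SDs of 5.69 and 5.64 in DN. Rnaset2a held 41.5, 43.1, 42.5 and 42.8% in NC, 83.0, 82.1, 80.8 and 82.1% in DN and 82.0, 81.1, 80.4 and 84.2% in DN+NaB of Rnaset2 counts. Its mean share was 42.5 ± 0.713% (SD, n = 4) in NC and 82.0 ± 0.896% in DN, a gap of 39.5 percentage points beside SDs of under 1. In NC and in DN, the libraries with more Rnaset2a also had more Rnaset2b. In DN+NaB this did not hold: DN+NaB 4 had the most Rnaset2a and the least Rnaset2b. Tmem181a held 77.2, 86.7, 78.7 and 75.8% in NC, 28.2, 37.9, 39.6 and 29.9% in DN and 39.5, 33.4, 33.9 and 33.8% in DN+NaB of Tmem181 counts. Rsph3b held 58.7, 55.2, 59.0 and 57.9% in NC, 39.0, 32.3, 32.1 and 25.2% in DN and 33.2, 34.5, 36.7 and 33.9% in DN+NaB of Rsph3 counts, and NC lay above all diabetic libraries. Tagap1 held 82.2, 83.7, 82.3 and 78.3% in NC, 61.8, 67.0, 67.0 and 60.7% in DN and 63.5, 60.9, 65.6 and 58.1% in DN+NaB of Tagap counts, again with NC apart. Mpc1 held 12.7, 9.48, 11.6 and 13.5% in NC, 8.20, 6.82, 7.35 and 10.6% in DN and 7.68, 8.50, 7.42 and 8.88% in DN+NaB of Mpc1 counts, where NC 2 overlapped DN.

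No difference in share was detected between DN and DN+NaB. The difference in the Rnaset2a share was -0.09 percentage points (exact permutation test, two-sided p = 0.943), in that of Tmem181a 1.25 (p = 0.80), Rsph3b 2.38 (p = 0.514), Tagap1 -2.11 (p = 0.457) and Mpc1 -0.13 (p = 0.971), by exact tests over 70 assignments of 4 against 4. Adjusted over the 5 families, each p was 0.971. The smallest p this design allows is 0.0286.

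**Figure D3:**
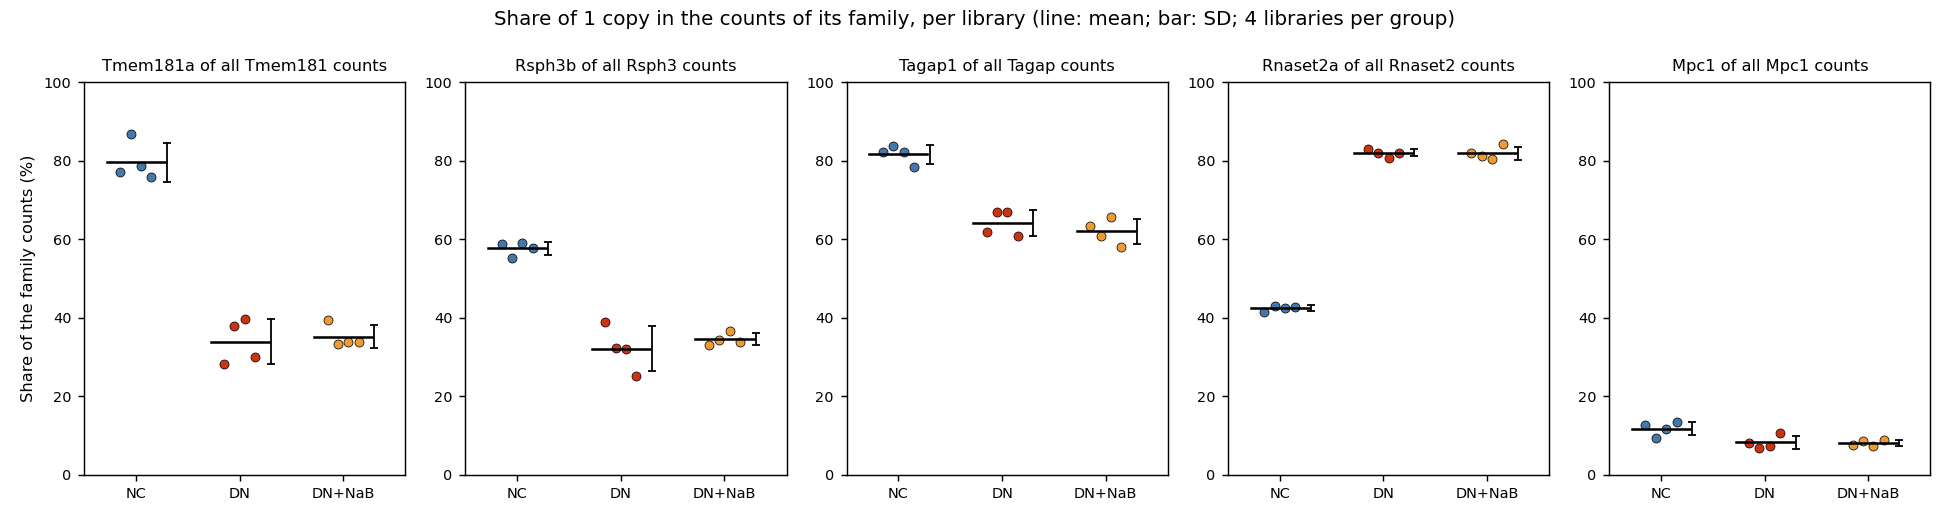
Share of 1 copy in the counts of its family in percent (y axis, 0 to 100) for each library of NC, DN and DN+NaB (x axis), with the mean as a line and the SD as a bar. The Rnaset2a share sits between 41.5% and 43.1% in NC and between 80.4% and 84.2% in the 8 diabetic libraries.

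Between DN and DN+NaB, no difference was detected in any of the 10 genes. By edgeR's quasi-likelihood test with Benjamini-Hochberg adjustment, 0 of 10 passed in DN+NaB against DN, where 0.0228% of all tested genes did (4 of 17530). By DESeq2 the count was also 0. At an unadjusted p under 0.05 there was 1 of 10, against 9.85% of all genes. That gene was Rps6ka2, the S6 kinase: its level was 4.99 ± 0.885 CPM in DN and 6.57 ± 0.841 in DN+NaB (SD, n = 4), and all 4 DN+NaB libraries lay above all 4 DN libraries. Its log2 fold change was 0.40 ± 0.17 (edgeR adjusted p = 0.475). It was the only 1 of the 10 genes whose DN and DN+NaB libraries did not overlap, beside 4.56% of all tested genes. The DN libraries also took part in the choice of the 10 genes, so nothing is read from this 1 gene.

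For the other 9 genes the difference lay between -0.25 and 0.07 on the log2 scale. Rnaset2a (-0.25 ± 0.12, edgeR adjusted p = 0.546) and Rnaset2b (-0.24 ± 0.14, edgeR adjusted p = 0.617) had like values, while Tiam2 had -0.21 ± 0.18 (edgeR adjusted p = 0.724). For Tmem181a, whose difference was -0.02 ± 0.20 (edgeR adjusted p = 0.977), an interval of 2 SE to each side ran from -0.42 to 0.37. The same interval ran from -0.22 to 0.34 for Rsph3b and from -0.22 to 0.30 for Synj2. It was widest for Mpc1, from -0.36 to 0.49. None of the 5 family sums passed either, with edgeR adjusted p from 0.556 (Rnaset2, -0.25 ± 0.13) to 0.911 (Rsph3, -0.05 ± 0.12), beside 0.0228% of the rows of that fit.

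The 10 genes are set here among the other tested genes of their stretch of chromosome 17. The RefSeq gene table places 104 genes from Tiam2 to Mpc1, of which 83 have a symbol in the count table and 36 were tested. In DN against NC, 12 of these 36 were called (33.3%, against 8.23% of all tested genes), the 10 included. Since the 10 were chosen from this stretch on that contrast, nothing is read from this share or from that of the rest. The 26 tested genes that are not among the 10 had a median log2 fold change of 0.04 in DN against NC, beside 0.01 over all tested genes. In that comparison the groups did not overlap in 7 of them (4 higher and 3 lower), against 13.3% of all tested genes. Of these 26, 2 were called (7.69%, against 8.23% of all tested genes): the pseudogene Tmem181c-ps and the predicted gene Gm2808, which lies between Tmem181b-ps and Dynlt1c among the tested genes. Gm2808 rose from 50 to 75 counts in NC to 211 to 297 in DN and had 175 to 257 in DN+NaB (log2 fold change 2.08 ± 0.20, edgeR adjusted p = 0.00002). Genes such as Arid1b, Snx9, Tulp4 and Gtf2h5, which lie between Tiam2 and Tmem181a, were not called in either comparison with NC; these 4 were named after their values were seen. On the rest of chromosome 17, 81 of 700 tested genes (11.6%) were called. In DN+NaB against NC, groups did not overlap in 8 of the 26, against 27.9% of all tested genes. By adjusted p, 6 of the 26 were called (23.1%, against 15.6%). Chosen after their values were seen, the 5 that are no copies of the 10 were Gm2808, Serac1, Ezr, Gm41523 and 3300005D01Rik.

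In this order, Rsph3b, Tagap1 and Rnaset2b follow each other among the tested genes and were all lower in DN than in NC. Their copies Tagap, Rsph3a and Rnaset2a follow further on, on the opposite strands, and were higher or level. Rps6ka2, lower in DN than in NC, lies between these blocks, and so does Fndc1 (log2 fold change -1.05 ± 0.44 in DN against NC). Gm41523 (-1.01 ± 0.31) lies between Rsph3a and Rnaset2a. Neither Fndc1 nor Gm41523 was called in DN against NC, but both had every DN library below every NC library. Fndc1 and Gm41523 were named after their values were seen.

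**Figure D4:**
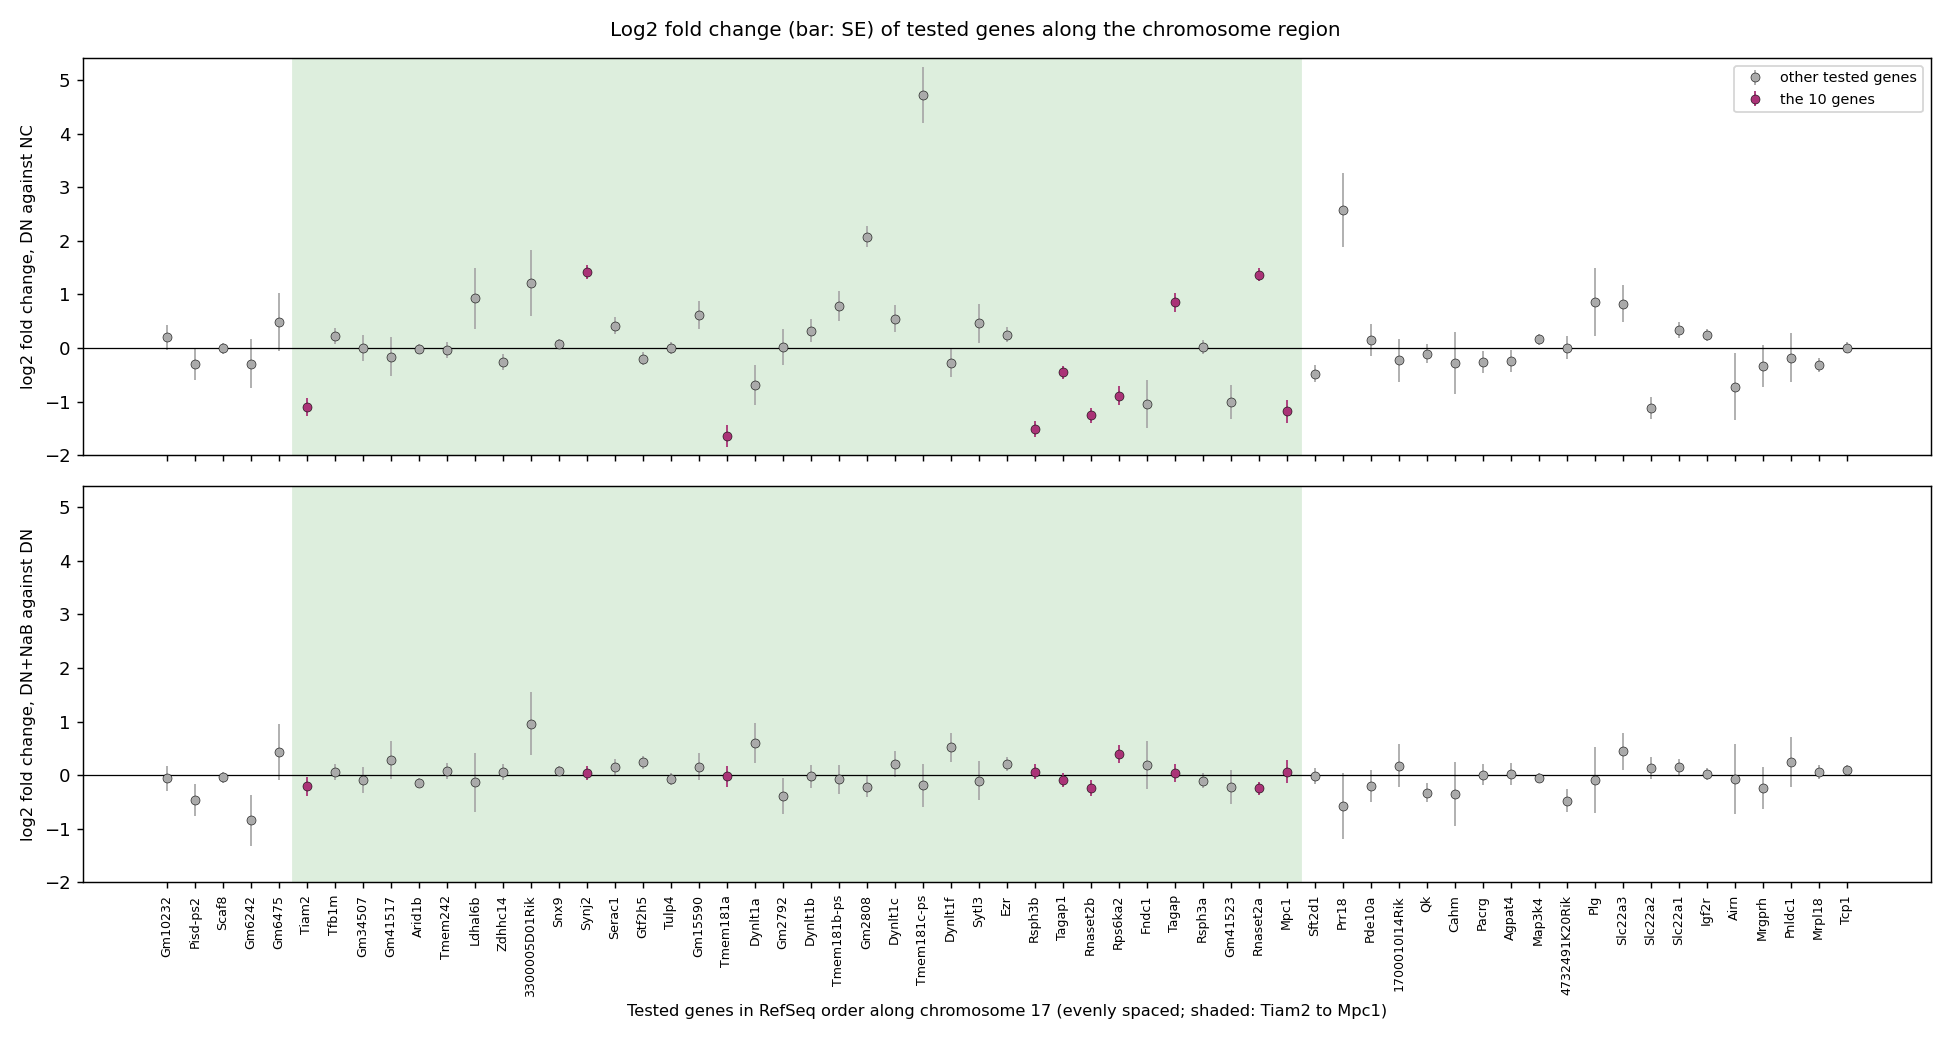
Log2 fold change (y axis, with SE as bars) of DN against NC (upper panel) and of DN+NaB against DN (lower panel) for tested genes in RefSeq order along chromosome 17 (x axis, evenly spaced), with the stretch from Tiam2 to Mpc1 shaded and the 10 genes coloured. In the upper panel the 10 genes lie above and below 0, and the other tested genes of the stretch range from -1.05 to 4.72. Tmem181c-ps (4.72) and Gm2808 (2.08) are the highest of these. In the lower panel the 10 genes lie between -0.25 and 0.40.

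Dynlt1a, Dynlt1b, Dynlt1c and Dynlt1f, copies of a gene for a dynein light chain, are interleaved with the Tmem181 symbols, while the pseudogene Dynlt1-ps1 lies on another chromosome in the RefSeq gene table. These 5 symbols summed to 36.9, 25.0, 28.2 and 32.0 CPM in NC, 47.8, 45.7, 61.8 and 35.5 in DN and 60.1, 62.8, 55.3 and 60.5 in DN+NaB. The sum overlapped between NC and DN, with a log2 fold change of 0.64 ± 0.16. Every DN+NaB library lay above every NC library, with a log2 fold change of 0.97 ± 0.16, and the sum passed in both comparisons with NC. Most of it was Dynlt1-ps1, at 25.9 ± 4.89 CPM in NC and 42.7 ± 10.4 in DN, and its DN+NaB mean was 53.9 ± 2.92 CPM. Dynlt1a, Dynlt1b, Dynlt1c and Dynlt1f each stayed under 3 CPM in every library. Dynlt1a shares exon bases with Tmem181a on the opposite strand but had at most 57 counts in a library. Tiam2 likewise overlaps Tfb1m, and Synj2 overlaps Serac1. Tfb1m had a log2 fold change of 0.22 ± 0.15 and Serac1 of 0.41 ± 0.16 in DN against NC, and neither was called (edgeR adjusted p 0.449 and 0.142). Since the use of strand in counting is not given, reads in shared exon bases cannot be told apart.

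Lists of genes that work with the 10 were read, beside the 8.23% of all tested genes called in DN against NC and the 15.6% in DN+NaB against NC. For Mpc1, 17 genes of pyruvate use were read. Pklr, the pyruvate kinase of liver and kidney, rose in DN against NC (0.86 ± 0.18, edgeR adjusted p = 0.0083). Pdk3, a kinase that inhibits pyruvate dehydrogenase, fell (-0.77 ± 0.17, edgeR adjusted p = 0.0126), and the other 15 did not pass. For Rnaset2, 16 lysosomal hydrolases and nucleases held 1 that rose, the protease Ctsb (0.45 ± 0.12, edgeR adjusted p = 0.0325), and 1 that fell, the beta-galactosidase Glb1 (-1.42 ± 0.25, edgeR adjusted p = 0.00297). For Rps6ka2, 0 of 10 related and upstream kinases passed in that comparison. For Tiam2, 0 of 9 Rac genes passed, and for Synj2, 0 of 12 phosphoinositide phosphatases. For Rsph3b, 0 of the 6 tested of 13 radial spoke and cilium genes passed. Of 5 ciliated cell markers 4 were tested. Their summed level ran from 2.27 to 3.56 CPM in NC, from 2.15 to 3.20 in DN and from 2.27 to 3.37 in DN+NaB. Rsph3b itself had 30.2 to 34.1 CPM among the NC libraries and 8.22 to 12.5 among the DN libraries. The medians of these 6 lists lay between -0.24 and 0.13 on the log2 scale, beside 0.01 over all genes. With DN+NaB against NC, 2 genes of pyruvate use rose and 2 fell, among them the pyruvate dehydrogenase phosphatase Pdp2 (0.93 ± 0.12, edgeR adjusted p = 0.000162). Of the lysosomal genes 4 rose and 2 fell, with Glb1 at -1.60 ± 0.25 (edgeR adjusted p = 0.000864). Of the phosphoinositide phosphatases 2 rose and 1 fell. In the kinase list 1 fell, and in the radial spoke and cilium list 1 fell, the axonemal dynein Dnah9 (-2.69 ± 0.75, edgeR adjusted p = 0.0272). None of the 9 Rac genes passed. None of the genes on the 6 lists passed in DN+NaB against DN by the same test.

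Some markers of kidney and immune cells were called too, but in DN against NC most on the 6 lists read here were not. Over all tested genes, 8.23% were called in DN against NC and 15.6% in DN+NaB against NC. Of 3 thick ascending limb markers, Umod (-0.82 ± 0.20, edgeR adjusted p = 0.0201) and Egf (-0.81 ± 0.18, edgeR adjusted p = 0.0118) fell in DN against NC, and all 3 fell in DN+NaB against NC. Their summed level lay between 7412 and 12765 CPM among NC libraries, 4974 and 6959 among DN libraries, and 5075 and 6613 among DN+NaB libraries. Of 8 proximal tubule markers, the transporters Slc22a7 (-6.49 ± 0.45, edgeR adjusted p = 4.6e-06) and Slc7a13 (-2.20 ± 0.28, edgeR adjusted p = 0.000319) fell in DN against NC, while in DN+NaB against NC 2 fell and 1 rose. Of 9 macrophage and dendritic cell markers 1 fell in DN against NC, Csf1r (-0.91 ± 0.12, edgeR adjusted p = 0.000266), and 5 in DN+NaB against NC. Their sum lay between 940 and 1303 CPM among NC, 1164 and 4238 among DN, and 343 and 1020 among DN+NaB libraries. Most of it was Cd74, which alone averaged 833 CPM for NC, against 2600 for DN and 482 for DN+NaB. The sum therefore mainly follows 1 gene. Cd74 (1.64 ± 0.50, edgeR adjusted p = 0.0711) and H2-Ab1 (1.99 ± 0.56, edgeR adjusted p = 0.0505) were higher in DN than in NC but not called. The median log2 fold change of the 9 markers in that comparison was -0.33. The 5 B and plasma cell markers summed to between 5.56 and 22.2 CPM among NC libraries but to at most 1.51 in any diabetic library, and of the 2 tested 1 fell in DN and both in DN+NaB against NC. Of 6 distal tubule and collecting duct markers 1 fell in DN and 1 rose in DN+NaB against NC, and of 3 podocyte markers 0 and 1 rose. No marker of these 6 lists passed in DN+NaB against DN by edgeR. Their part in the values of the 10 genes was not tested.

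Genes elsewhere in the genome had patterns close to those of Tmem181a, Rsph3b and Synj2, the 3 genes with the largest log2 fold change in size. Likeness was Pearson's r of log2 CPM over the 12 libraries, among 15217 genes outside chromosome 17 and is given as a description. NC and DN lay apart in all 3 genes, so the value within the diabetic libraries is given beside it. The ranking included these same 8 libraries, so that value is no separate check. For Tmem181a the closest were Zfp239 (r = 0.97) and Col5a3 (0.97). Within the 8 diabetic libraries alone these values were 0.72 and 0.40. Rsph3b was closest to Nhp2 (0.99) and Vill (0.98), with 0.91 and 0.85 within the 8 diabetic libraries. Synj2 was closest to Gm13394 (0.99) and Ccdc42 (0.99), with 0.37 and 0.78 within the 8. Gm13394 had a mean of 3.57 CPM in NC and 886 in DN.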

How the data were processed

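The authors deposited whole-number counts per gene symbol for 12 libraries, not normalized. Per the submitters' processing notes, HISAT2 2.0.4 was used. The sources used here do not give the counter, its use of strand, its handling of reads with several matches or the genome build. Groups were taken from the titles, and all columns matched a sample. Genes were filtered with filterByExpr, scaled with TMM and fitted over all 12 libraries with edgeR's quasi-likelihood test (edgeR 4.0.16, R 4.3.3, robust estimation, group only), two-sided, with Benjamini-Hochberg adjustment over all 17530 genes and calls at 0.05. The fit was tested on simulated data. Copies were summed per library and refitted over 17520 rows. Shares of copies were compared with an exact permutation test. DESeq2 1.42.0 and 19 other alternatives per comparison were tried.

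Sequences came from GENCODE M21 transcripts (GRCm38) and RefSeq promoters (GRCm38.p6), aligned with Biopython 1.88; the RefSeq gene table gave gene order. The 10 genes, the lists and the naming rule were chosen with earlier results of these data known. The rule named the 10 genes, symbols of their families and of Dynlt1, interval genes among the 6 largest changes, up to 4 genes per list, and the 2 closest genes for 3 of the 10. Cell type markers were read as lists. The DN against NC and DN+NaB against NC values share the NC libraries, and DN+NaB against DN shares the DN and DN+NaB libraries with them.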

Additional observations from a re-analysis of the deposited data

Results flagged for a closer look

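In 3 of 72 checks of a gene or family sum within a group, the highest or lowest of the 4 libraries stood apart from the rest by Dixon's test, where chance gives about 1 in 20. Tagap in NC 4 was at 3.94 CPM while the other NC libraries were at 2.79 to 2.88. Mpc1 in DN 2 was at 3.68 CPM, below the others at 4.76 to 4.94. Dynlt1a in NC 1 was at 0.873 CPM, above the others at 0.497 to 0.526.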

How the results depend on the processing

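Of 400 values of the 10 genes against NC under 20 alternatives each, 400 kept their direction. Calls of Tagap1, Rps6ka2 and the Tmem181, Rnaset2 and Mpc1 sums changed with settings; the causes were not tested. Besides the libraries named above, the Tmem181 sum passed in DN+NaB against NC with DESeq2, library size alone, 1 CPM in 4 libraries or only 2 groups, as did Rps6ka2. The Rnaset2 sum passed in DN against NC with DESeq2, and the Mpc1 sum did not with only 2 groups. Leaving out each library in turn gave 9 to 10 of the 10 genes in both comparisons with NC and 0 in DN+NaB against DN, 1 to 2 family sums in DN against NC and 1 to 3 in DN+NaB against NC. With only the 2 groups compared, 1 sum passed in DN against NC. Over all genes, DN against NC had 1031 higher with DESeq2, and library size alone gave 503 higher and 1103 lower (669 and 774 otherwise). Library size alone moved the median of all genes by -0.11 in DN+NaB against NC, where the 10 genes kept their directions. Leaving out a library gave 409 to 921 higher and 533 to 1055 lower in DN against NC, 790 to 1570 and 1043 to 2146 in DN+NaB against NC. With only 2 groups, DN+NaB against NC had 1783 higher. In DN+NaB against DN, higher and lower counts were 84 and 173 with DESeq2, 8 and 14 with RLE factors, 8 and 18 with library size, 9 and 18 unfiltered, 7 and 10 at 1 CPM in 4 libraries, 0 and 0 with only 2 groups, and 0 to 30 and 0 to 37 without 1 library.

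Differences in DN+NaB against DN that were near 0 changed sign without 1 library. Over all 20 alternatives the log2 ranges were -0.014 to 0.12 for Synj2, -0.15 to 0.093 for Tmem181a, -0.054 to 0.13 for Rsph3b, -0.035 to 0.12 for Tagap and -0.034 to 0.12 for Mpc1. For sums they were -0.14 to 0.032 (Tmem181), -0.11 to 0.017 (Rsph3), -0.096 to 0.013 (Tagap) and -0.057 to 0.17 (Mpc1). Differences in share ran from -0.66 to 3.15 percentage points for Tmem181a, 0.07 to 4.67 for Rsph3b, -3.30 to -0.80 for Tagap1, -0.84 to 0.43 for Rnaset2a and -0.60 to 0.66 for Mpc1.

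Same-numbered libraries correlated at r = -0.245 to 0.269 in their deviations, and 5 of 12 correlated best with their own number, so the numbers were not taken as pairs. With a replicate block, 653 genes were higher and 763 lower in DN against NC, 9 of the 10 genes passed (not Tagap1), and DN+NaB against DN had 4 higher and 3 lower. Shares by sign flips within numbers gave exact p of 0.375 to 1.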
